A study of Mus musculus with 4 samples.

Results

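The genes described here carry arachidonic acid into prostaglandins and leukotrienes in MDSCs. They are 10 of the 53465 genes listed in the count table and were taken by gene name: the cyclooxygenases Ptgs1 and Ptgs2, the prostaglandin E synthase Ptges, the prostaglandin transporter Slco2a1, the prostaglandin dehydrogenase Hpgd, the leukotriene genes Alox5, Alox5ap, Lta4h and Ltc4s, and the lipoxygenase Alox15. The set was chosen by a measured value, the lower count of Slco2a1 with EGCG in these libraries, so the values of Slco2a1 are given as a description without a test, and the other 9 genes were added by their place in the pathway. MDSCs, myeloid-derived suppressor cells, are myeloid cells arrested before maturity that expand during tumor growth and restrain T cells. They were isolated with magnetic beads against Gr-1, an epitope of Ly-6G and Ly-6C, from the spleens of BALB/c mice carrying 4T1 mammary tumors (males of 6 weeks at injection, per the study's methods). The cells were kept for 6 h in control medium (2 libraries) or with EGCG, a green tea catechin, at 5 μg/mL (2 libraries). All animals bore tumors, with no arm of tumor-free mice. The labels place the harvest on day 21, whereas the methods give 2 weeks, and neither source says if replicate libraries stem from separate animals. P values therefore measure the spread between these libraries, which may be technical.

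Phospholipases free arachidonic acid from membranes. The cyclooxygenases turn it into prostaglandin H2, from which terminal synthases make prostaglandin E2 and the other prostanoids, and Slco2a1 carries prostaglandins into cells where Hpgd oxidizes them. On the other branch, 5-lipoxygenase (Alox5) and its activating protein (Alox5ap) make leukotriene A4, which Lta4h hydrolyzes to the neutrophil attractant leukotriene B4 and Ltc4s conjugates with glutathione to leukotriene C4. Neutrophils are known for the leukotriene B4 branch, and prostaglandin E2 is known as a factor that supports the suppressive function of MDSCs.

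Between 17767318 and 18390385 reads were counted on genes per library, and 14682 genes had enough counts to be tested, all 10 genes of the set among them. Levels of a gene in different libraries are given in CPM, counts relative to library size after scaling with TMM factors. Levels of different genes are compared in TPM, counts per exonic length scaled to the same total in each library. The groups were tested with edgeR (quasi-likelihood F, p adjusted after Benjamini-Hochberg across the tested genes), and an adjusted p under 0.05 is called. Control replicate 2 was closer to the EGCG libraries than control replicate 1 was (mean chi-square per gene of 6.90 and 6.14 against 14.4 and 11.2). The same measure was 6.25 between the control libraries and 6.07 between the EGCG libraries, so that control replicate 2 was about as near to EGCG replicate 2 as to the other control library. Neutrophil markers were high in all 4 libraries (for example Ly6g at 943.2 to 1200 CPM), and markers of eosinophils, macrophages, B cells and endothelium were also detected. In bulk RNA of this kind, fewer cells of a type and less RNA per cell cannot be told apart.

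Alox5ap and Alox5, which start the leukotriene branch, had the highest levels of the set in every library, above both cyclooxygenases. Alox5ap stood highest of the set, with 1151 and 1168 TPM in the control libraries and 1166 and 1284 TPM in the EGCG libraries, above 99.2% of the tested genes. Alox5 followed at 246.1 to 276.6 TPM and Lta4h at 61.1 to 68.5 TPM, whereas Ltc4s was at 4.73 to 8.10 TPM. In every library Lta4h was at 8.46 to 12.9 times the level of Ltc4s per exonic length. Mgst2, from the wider list of leukotriene conversion genes and outside this set, was at 51.4 to 63.9 TPM. Of the prostaglandin genes, Ptgs1 ranged from 25.3 to 37.5 TPM, Ptgs2 from 7.39 to 11.5 TPM and Ptges from 5.21 to 7.85 TPM. Slco2a1 (0.383 to 1.14 TPM) and Hpgd (0.252 to 1.17 TPM) had the lowest levels, above only 7.38% and 8.39% of the tested genes. The ranges over the 4 libraries did not overlap between most neighbours in this order. The exceptions were Lta4h and Alox15 (44.6 to 65.6 TPM), Ptgs2 and Ltc4s, Ltc4s and Ptges, and Hpgd and Slco2a1. With the length of the longest transcript in place of all exons, the order kept its first 8 places and Slco2a1 (1.08 TPM) moved above Hpgd (0.630 TPM), while Lta4h was at 98.2 TPM against 63.0 TPM.

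**Figure D1:**
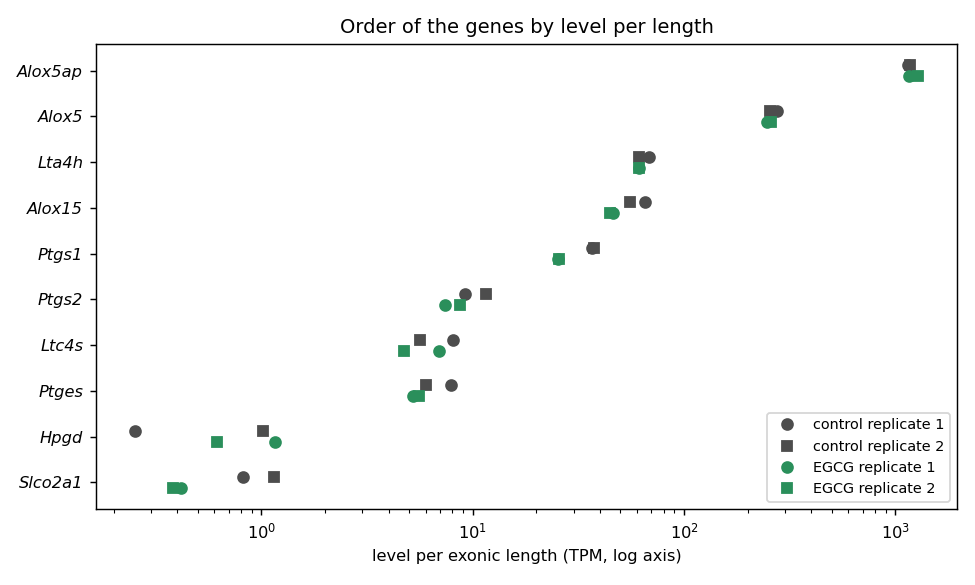
Level per exonic length (TPM, log axis) of the 10 genes in each library, with control libraries in grey and EGCG libraries in green, circles for replicate 1 and squares for replicate 2. Alox5ap lies at 1151 TPM or above in every library, whereas Slco2a1 and Hpgd reach at most 1.17 TPM.

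Slco2a1 (ENSMUSG00000032548, chromosome 9 of GRCm38, 102988712 to 103096002, plus strand) encodes the prostaglandin transporter, which takes up prostaglandins such as E2. It had 78 and 117 counts in the control libraries and 46 and 40 counts in the EGCG libraries. In CPM these were 4.27 and 6.55 against 2.54 and 2.24, a mean of 5.41 ± 1.61 (SD, n = 2) in control and 2.39 ± 0.210 (SD, n = 2) with EGCG. Both EGCG libraries were below both control libraries, and the log2 fold change was -1.18 (standard error 0.25), so that the control mean was 2.27 times the EGCG mean. The study listed Slco2a1 among its top genes lower with EGCG and in healthy mice. It is not among the genes for which the study reports a matching change by qRT-PCR. Without control replicate 2, the highest library, the log2 fold change was -0.83, and without control replicate 1 it was -1.45. With 13545 exonic bases, Slco2a1 belonged to the fifth of tested genes with the longest exons, whose median log2 fold change was -0.09, against 0.09 in the fifth with the shortest. With a correction for length in each library its log2 fold change was -1.05.

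Apart from Hpgd, which had at most 16 counts, the cyclooxygenase Ptgs1 had the largest absolute log2 fold change of the other genes. Ptgs1 (ENSMUSG00000047250, chromosome 2, 36230426 to 36252272, plus strand) encodes the cyclooxygenase that many cells, platelets among them, express constitutively. It was at 55.4 and 61.7 CPM in the control libraries and at 44.2 and 43.2 CPM in the EGCG libraries. The groups did not overlap, and the difference between the means was larger than the spread within either group (58.5 ± 4.49 against 43.7 ± 0.754 CPM, SD, n = 2). The log2 fold change was -0.42 (standard error 0.09). By edgeR its adjusted p was 0.0769, so that Ptgs1 was not called. It passed the threshold with robust estimation (adjusted p of 0.0443), with DESeq2 (0.0489), with library size only (0.0141) and without control replicate 1 (0.0111), with a range of 0.0111 to 0.593 across 14 alternatives. A fit with a library left out keeps 1 library in that arm, which is assumed to vary like the pair in the other group. The log2 fold change of Ptgs1 stayed between -0.49 and -0.34 over these alternatives. A predicted gene on the opposite strand, Gm43621, covers 3.81% of its exonic bases.

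Ptgs2 (ENSMUSG00000032487, chromosome 1, 150100031 to 150108227, plus strand) encodes the inducible cyclooxygenase. It was at 16.3 and 22.4 CPM in control and at 15.2 and 17.2 CPM with EGCG. The groups overlapped, since EGCG replicate 2 was above control replicate 1. Its log2 fold change was -0.25 (standard error 0.15, adjusted p of 0.526 by edgeR), and without control replicate 2 it was -0.00099. Per length, Ptgs1 was at 4.01 and 3.25 times Ptgs2 in the control libraries and at 3.43 and 2.95 times Ptgs2 in the EGCG libraries, so that this ratio overlapped between the groups.

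Ptges (ENSMUSG00000050737, chromosome 2, 30889471 to 30929863, minus strand) encodes the microsomal synthase that turns prostaglandin H2 into E2. It was at 11.9 and 10.0 CPM in control and at 9.21 and 9.46 CPM with EGCG. Both EGCG libraries were below the control libraries, but by little, with a difference of -0.23 on the log2 scale (standard error 0.15, adjusted p of 0.568 by edgeR) that was -0.10 without control replicate 1.

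Hpgd (ENSMUSG00000031613, chromosome 8, 56294585 to 56321043, plus strand) encodes the dehydrogenase that inactivates prostaglandins. It had 3 and 13 counts in control and 16 and 8 counts with EGCG, so that the groups overlapped. Its log2 fold change of 0.58 had a standard error of 0.62 (adjusted p of 0.762 by edgeR) and turned to -0.12 without control replicate 1.

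**Figure D2:**
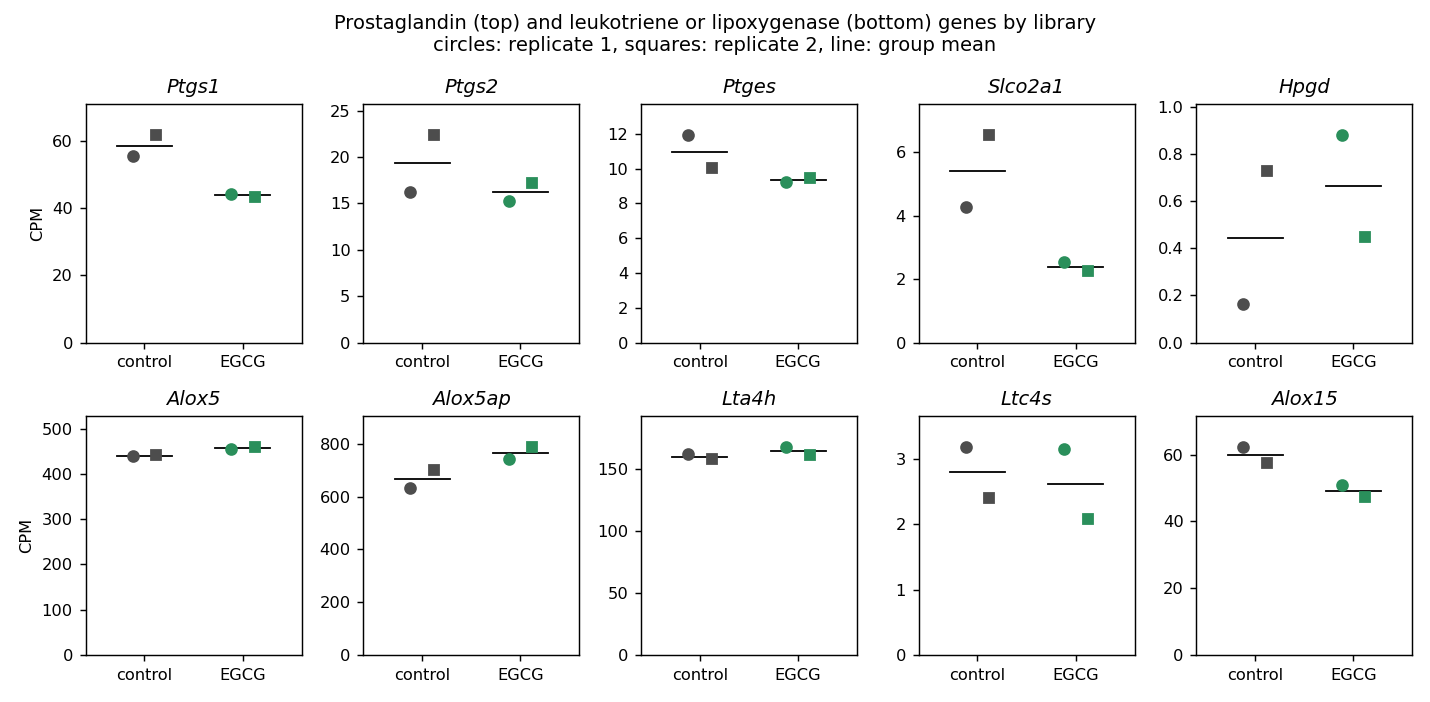
CPM (linear axis from 0) of each gene in the control libraries (grey) and EGCG libraries (green), circles for replicate 1, squares for replicate 2, and a line at the group mean. Both EGCG libraries lie below both control libraries for Ptgs1, Ptges, Slco2a1 and Alox15, and above them for Alox5 and Alox5ap.

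The RefSeq promoters (GRCm38.p6, from 250 bases before to 50 bases after the annotated start) of Slco2a1, the gene with the largest difference, and of both cyclooxygenases, whose levels differ within each library, are shown for reference. Of the 10 genes, 8 had a promoter in the table used. Capitals mark matches, on either strand, to any of 6 motifs that were searched: the TATA box TATAAA, the GC box GGGCGG, the E-box CACGTG, the cAMP response element core TGACGT, the C/EBP site TTNNGCAA and the STAT site TTCNNNGAA. The E-box and the cAMP element core overlap by 2 letters when they meet, as in Ptgs2. An NF-kB motif, also searched at first, had no match in the printed windows.
Slco2a1, chr9:103008237-103008536, plus strand: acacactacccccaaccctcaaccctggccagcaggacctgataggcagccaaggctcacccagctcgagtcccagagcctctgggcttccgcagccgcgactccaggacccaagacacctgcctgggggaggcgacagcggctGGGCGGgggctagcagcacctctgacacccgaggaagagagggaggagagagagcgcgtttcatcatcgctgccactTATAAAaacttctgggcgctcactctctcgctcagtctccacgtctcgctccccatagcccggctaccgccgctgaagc
Ptgs1, chr2:36230176-36230475, plus strand: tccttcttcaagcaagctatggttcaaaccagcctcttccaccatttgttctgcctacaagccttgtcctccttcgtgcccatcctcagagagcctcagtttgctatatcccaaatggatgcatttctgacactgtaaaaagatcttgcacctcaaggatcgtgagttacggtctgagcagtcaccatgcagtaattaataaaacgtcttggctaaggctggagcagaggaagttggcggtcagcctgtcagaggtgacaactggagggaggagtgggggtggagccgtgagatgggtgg
Ptgs2, chr1:150099781-150100080, plus strand: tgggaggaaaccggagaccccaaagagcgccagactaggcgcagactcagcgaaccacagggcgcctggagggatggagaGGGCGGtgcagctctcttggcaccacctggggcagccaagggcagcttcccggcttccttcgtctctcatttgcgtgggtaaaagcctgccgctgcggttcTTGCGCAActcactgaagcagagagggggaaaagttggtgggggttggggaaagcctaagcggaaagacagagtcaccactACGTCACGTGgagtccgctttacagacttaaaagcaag

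The Slco2a1 window held a TATA box 29 bases and a GC box 106 bases before the RefSeq start, which lies 19775 bases inside the gene as GENCODE draws it. The Ptgs2 window held a GC box 170 bases and a C/EBP site 69 bases before the start, and an E-box joined to a cAMP element core after it. The Ptgs1 window held none of the 6 motifs. Among 32851 promoters of the same length, the TATA box was found in 13.6%, the GC box in 35.7%, the E-box in 7.15%, the cAMP element core in 7.51%, the C/EBP site in 10.8% and the STAT site in 8.30%. A match is a description of letters and was not tested as a binding site.

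The leukotriene B4 genes differed little between the groups. Alox5ap (ENSMUSG00000060063, chromosome 5, 149264767 to 149288153, plus strand) presents arachidonic acid to 5-lipoxygenase. It was at 631.9 and 701.9 CPM in control and at 744.4 and 787.5 CPM with EGCG. Both EGCG libraries were above the control libraries, with a difference of 0.20 on the log2 scale (standard error 0.08) and an adjusted p of 0.344 by edgeR. Leaving out control replicate 1 gave Alox5ap a log2 fold change of 0.13, and leaving out control replicate 2 gave 0.28. In TPM, which divides by length and is not scaled by TMM, the groups overlapped. A predicted gene on the opposite strand, Gm19719, covers 13.3% of the exonic bases of Alox5ap, so that part of its counts is uncertain.

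Alox5 (ENSMUSG00000025701, chromosome 6, 116410077 to 116461178, minus strand) encodes 5-lipoxygenase. It was at 439.2 and 442.3 CPM in control and at 454.2 and 459.3 CPM with EGCG. The 4 libraries lay within a narrow range, and the log2 fold change was 0.05 (standard error 0.07, adjusted p of 0.832 by edgeR). Lta4h (ENSMUSG00000015889, chromosome 10, 93453411 to 93484875, plus strand) encodes leukotriene A4 hydrolase. It was at 161.7 and 158.3 CPM in control and at 167.6 and 161.0 CPM with EGCG. The groups overlapped, with a difference of 0.04 on the log2 scale (standard error 0.07, adjusted p of 0.880 by edgeR). In TPM the means of both genes went the other way. Alox5 averaged 265.5 TPM in control and 252.6 TPM with EGCG, with overlap, and Lta4h averaged 64.9 and 61.1 TPM, with both EGCG libraries just below the lower control library.

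Ltc4s (ENSMUSG00000020377, chromosome 11, 50236461 to 50238616, minus strand) encodes leukotriene C4 synthase, an enzyme known from eosinophils, basophils and mast cells. It had 58 and 43 counts in control and 57 and 37 counts with EGCG, and the replicates of a group differed by more than the groups did. Its log2 fold change of -0.10 (standard error 0.28, adjusted p of 0.926 by edgeR) turned to 0.12 without control replicate 1 and to 0.17 without EGCG replicate 2. The predicted gene Gm26542 on the other strand shares 26.4% of its exonic bases.

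Alox15 (ENSMUSG00000018924, chromosome 11, 70344152 to 70352031, minus strand) encodes a lipoxygenase known from eosinophils and resident macrophages. It was at 62.2 and 57.4 CPM in control and at 50.9 and 47.3 CPM with EGCG. Both EGCG libraries were below both control libraries, with means of 59.8 ± 3.39 and 49.1 ± 2.58 CPM (SD, n = 2). The log2 fold change was -0.29 (standard error 0.09, adjusted p of 0.223 by edgeR). It stayed between -0.34 and -0.22 with a library left out. Within each library Alox5 was at 4.22 and 4.60 times Alox15 per length in control and at 5.33 and 5.81 times with EGCG, which do not overlap.

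**Figure D3:**
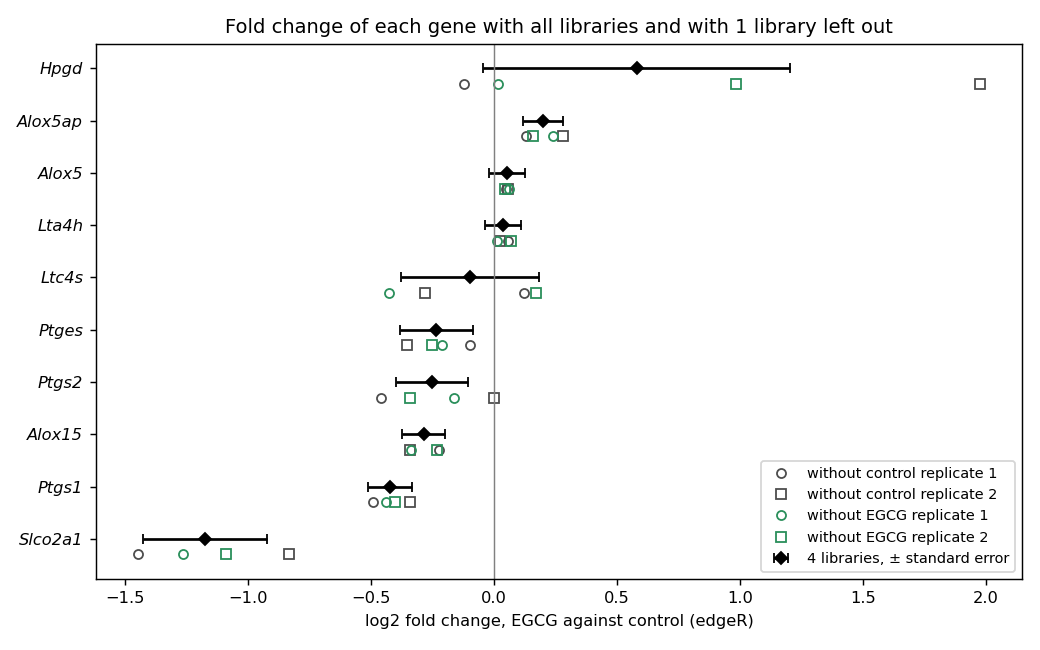
Log2 fold change of EGCG against control (edgeR) for each gene, with all 4 libraries as black diamonds with standard errors and with 1 library left out as open symbols. Slco2a1, Ptgs1 and Alox15 lie to the left of 0 and Alox5ap to the right in all 5 fits, whereas Ltc4s and Hpgd lie on both sides. For the first 4 of these genes the groups did not overlap, so leaving out 1 library could hardly turn their sign.

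Of the 9 genes other than Slco2a1, 0 were called in either direction by edgeR's quasi-likelihood test, against 0.136% of all tested genes called lower and 0.0136% called higher. At an unadjusted p under 0.05, 2 of the 9 were lower (Ptgs1 and Alox15) and 1 was higher (Alox5ap), against 7.02% and 5.22% of all tested genes. DESeq2 called 1 of the 9 lower, against 0.341% of all tested genes. It gave no adjusted p for Ptges, Ltc4s and Hpgd, so that these could not be called by it in either direction. Genes without an adjusted p still count in the DESeq2 shares of all tested genes. The EGCG libraries lay below the control libraries for 3 of the 9 genes and above them for 2, against 21.2% and 21.5% of all tested genes. The fitted log2 fold change was below 0 for 5 of the 9 genes and above 0 for 4, against 49.4% and 50.6% of all tested genes, and that of Slco2a1 was below -1, as for 0.879% of them. DESeq2 called 0 of the 9 higher, against 0.0954% of all tested genes. Nothing is read from these shares, since the set was drawn up from the same contrast. The median log2 fold change of the 9 genes was -0.10 (-0.17 with Slco2a1), against 0.0031 over all tested genes. With a library left out, the median with Slco2a1 ran from -0.19 (without EGCG replicate 1) to -0.09 (without EGCG replicate 2).

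The wider pathway was described by 61 further genes in 6 lists by symbol, of which 48 had enough counts to be tested. By edgeR's quasi-likelihood test 0 of the 48 were called, against 0.15% of all tested genes in either direction. At an unadjusted p under 0.05, 3 were lower and 3 were higher, against 7.02% and 5.22% of all tested genes. DESeq2 called 1 of them lower, against 0.341% of all tested genes, a share that again counts genes without an adjusted p. Their median log2 fold change was -0.03. The groups did not overlap for 11 lower and 4 higher genes, against 21.2% and 21.5% of all tested genes.

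Among 15 genes of arachidonate release, 11 were tested and 0 were called. The most abundant was Anxa1, an inhibitor of phospholipase action, at 4254 to 4731 TPM, followed by Pla2g7, which hydrolyzes platelet-activating factor, at 380.0 to 448.0 TPM. The cytosolic phospholipase Pla2g4a was at 4.06 to 5.67 TPM. The smallest p values were those of the lysosomal Pla2g15, with a difference of -0.24 on the log2 scale (standard error 0.11, adjusted p of 0.412 by edgeR), and Pla2g12a, with -0.37 (standard error 0.22, adjusted p of 0.532). Over 14 alternatives these ran from -0.38 to -0.08 for Pla2g15 and from -0.61 to -0.16 for Pla2g12a.

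Of 9 terminal prostanoid synthase genes, 8 were tested and 0 were called. Tbxas1, which makes thromboxane A2, had 630 and 530 counts in control and 458 and 459 counts with EGCG. The groups did not overlap, and the log2 fold change of Tbxas1 was -0.33 (standard error 0.10, adjusted p of 0.229 by edgeR, 0.0457 without control replicate 2, where the spread comes from the EGCG pair alone, and up to 0.853 over 14 alternatives). Ptges3, a chaperone partner that also has prostaglandin E synthase activity, had 605 and 625 counts in control and 685 and 794 counts with EGCG, with a difference of 0.27 on the log2 scale (standard error 0.10, adjusted p of 0.307). Over 14 alternatives that of Ptges3 ran from 0.15 to 0.39 and that of Tbxas1 from -0.44 to -0.21. Part of the sequence of Ptges3 (20.9% of its 31-base words) also occurs in other genes, the pseudogene Ptges3-ps among them. Per length Ptges3 (37.3 to 46.4 TPM) was the highest of this list, Fam213b (8.01 to 17.2 TPM) overlapped with Ptges2 (7.66 to 9.07 TPM) and Tbxas1 (6.18 to 9.81 TPM), and Ptgds had no counts.

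Prostanoid receptors gave 7 tested genes of 9, of which 0 were called (0.15% of all tested genes were) and in 7 of which the groups overlapped, while 42.7% of all tested genes did not overlap. The prostacyclin receptor Ptgir (22.9 to 34.1 TPM) and the prostaglandin E2 receptor Ptger2 (14.4 to 17.6 TPM) were the most abundant, and the E2 receptor Ptger4 was at 5.07 to 6.37 TPM. The log2 fold change was -0.17 for Ptgir (standard error 0.10, adjusted p of 0.554 by edgeR), -0.04 for Ptger2 (0.10, adjusted p of 0.920) and 0.49 for Ptger3 (0.35, adjusted p of 0.620). Over 14 alternatives it ran from -0.27 to -0.07 for Ptgir, from -0.14 to 0.06 for Ptger2 and from 0.08 to 0.81 for Ptger3.

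All 6 genes of prostaglandin breakdown and transport (labelled breakdown and efflux in the wider pathway figure) were tested, and 0 were called. The organic anion transporter genes Slco4a1 and Slco3a1, relatives of Slco2a1, had the smallest p values. Slco4a1 had 168 and 166 counts in control and 142 and 118 counts with EGCG, and Slco3a1 had 697 and 699 counts in control and 594 and 633 counts with EGCG. For both, the EGCG libraries were below the control libraries, with log2 fold changes of -0.36 (standard error 0.16, adjusted p of 0.398 by edgeR) and -0.18 (standard error 0.09, adjusted p of 0.466), which ran from -0.48 to -0.24 and from -0.24 to -0.11 over 14 alternatives. By the length of all exons, the prostaglandin reductase genes Ptgr1 (mean of 27.3 TPM) and Zadh2 (mean of 14.2 TPM) had the highest levels. By the length of the longest transcript, Slco3a1 (mean of 15.5 TPM) was above Zadh2 (mean of 12.1 TPM).

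Of 15 genes of leukotriene conversion, efflux and receptors, 12 were tested and 0 were called. Abcc1, which exports leukotriene C4, had 1640 and 1526 counts in control and 1187 and 1234 counts with EGCG. The groups did not overlap, and the log2 fold change of Abcc1 was -0.38 (standard error 0.08). Its adjusted p by edgeR was 0.0730 and ran from 0.0144 to 0.593 over 14 alternatives. Abcc1 has 15092 exonic bases, and with the correction for length its log2 fold change was -0.24. It passed the threshold with robust estimation, DESeq2 and library size only, and without control replicate 2 or EGCG replicate 2, where the pair in the other group alone gives the spread between libraries. Ggt1, which starts the conversion of leukotriene C4 to D4, had a log2 fold change of 0.24 (standard error 0.10, adjusted p of 0.364, and 0.13 to 0.36 over 14 alternatives). Its relative Ggt5 went the other way, with both EGCG libraries below both control libraries. The log2 fold change of Ggt5 was -0.17 (standard error 0.08, adjusted p of 0.414 by edgeR, and -0.26 to -0.08 over 14 alternatives). The most abundant were Cyp4f18, which oxidizes leukotriene B4 in neutrophils, at 735.5 to 786.9 TPM, and the leukotriene B4 receptor Ltb4r1 at 401.9 to 454.5 TPM. Ltb4r1 had a log2 fold change of 0.18 (standard error 0.08, adjusted p of 0.378, and 0.12 to 0.24 over 14 alternatives). The second leukotriene B4 receptor Ltb4r2 had 11 to 29 counts, and the cysteinyl leukotriene receptors Cysltr1 and Cysltr2 had between 9 and 42 counts.

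Of the 7 other lipoxygenase and epoxide hydrolase genes, 4 were tested and 0 were called. The epoxide hydrolase gene Ephx1 was highest at 6.78 to 9.04 TPM, and Alox8 (0.793 to 1.35 TPM) overlapped with Alox12e (0.550 to 1.25 TPM). Alox12, the lipoxygenase known from platelets, had 15 and 32 counts in control and 10 and 17 counts with EGCG, which overlapped (log2 fold change of -0.79, standard error 0.46, adjusted p of 0.532 by edgeR, and between -1.24 and -0.13 over the alternatives that tested it).

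**Figure D4:**
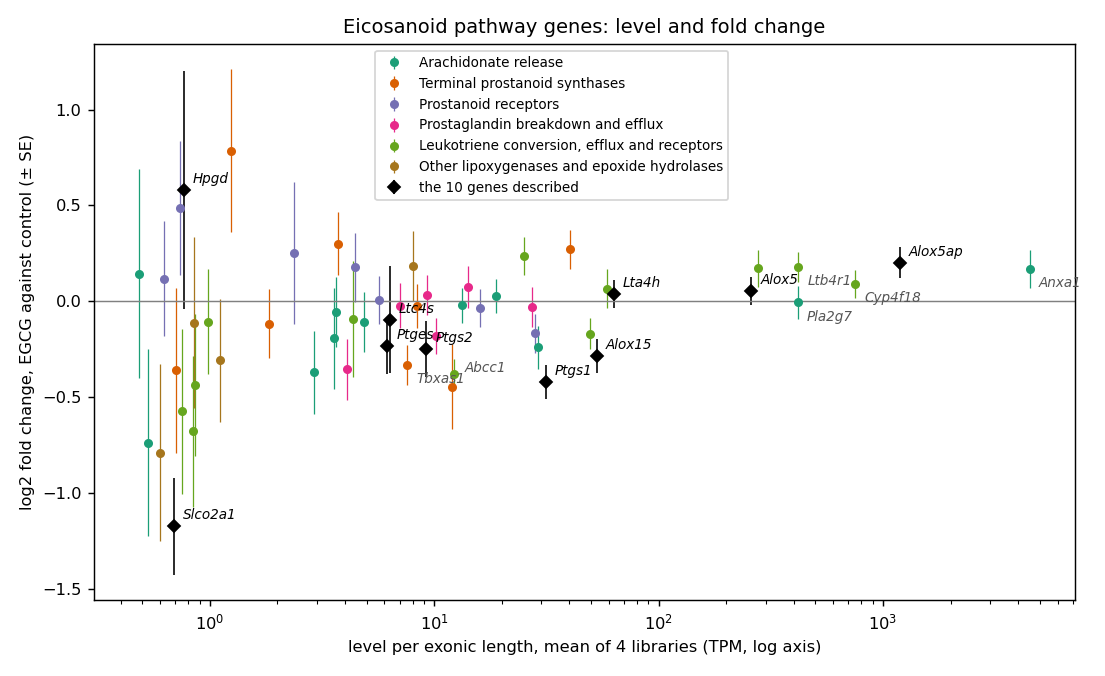
Log2 fold change (EGCG against control, with standard errors) against the mean level per exonic length (TPM, log axis) for the 10 genes (black diamonds) and the 48 tested genes of the wider pathway (coloured by list). The 7 most abundant genes (Anxa1, Alox5ap, Cyp4f18, Ltb4r1, Pla2g7, Mgst1, Alox5) lie between -0.0069 and 0.20, and Slco2a1 is the lowest point.

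Markers of some other cells in the sorted fraction were lower with EGCG beside some of these genes, whereas those of others were not. The 9 endothelial markers summed to 139.5 and 148.8 CPM in control and 107.9 and 118.1 CPM with EGCG, and the EGCG libraries lay below the control libraries for 7 of the 8 that were tested, against 21.2% of all tested genes. The endothelial cadherin gene Cdh5 was at 6.90 and 6.38 CPM in control and 3.25 and 4.03 CPM with EGCG, and Emcn was near 0 (at most 0.276 CPM). Slco2a1 is known from endothelium as well as from macrophages. The 5 eosinophil markers summed to 1066 and 920.8 CPM in control and 897.6 and 757.6 CPM with EGCG, and for 5 of the 5 both EGCG libraries were below both control libraries (21.2% of all tested genes), among them Epx at 149.6 and 124.0 against 112.1 and 108.2 CPM. The 9 macrophage markers summed to 449.2 and 435.4 CPM against 335.6 and 373.1 CPM, with 5 of 9 below both control libraries in both EGCG libraries, beside the same 21.2%. The 6 platelet markers summed to 39.3 and 44.7 CPM against 35.5 and 34.9 CPM, with 1 of 6 below in both, which is near the 21.2% of all tested genes. None of the markers on these 4 lists was at 0 in all libraries. The monocyte sum was lower too, at 1016 and 979.4 CPM in control and 929.7 and 929.4 CPM with EGCG. Sums of basophil or mast cell, dendritic, B cell, T or NK cell, erythroid and fibroblast markers overlapped between the groups. The B cell markers, for example, summed to 303.0 and 321.2 CPM in control and 349.4 and 315.1 CPM with EGCG. Those of basophils or mast cells summed to 287.0 and 317.9 CPM in control and 305.9 and 298.5 CPM with EGCG. Neutrophil markers summed to 53063 and 63923 CPM in control and 72563 and 62765 CPM with EGCG, which overlapped. Of these 10 markers, 2 were higher and 1 was lower in both EGCG libraries, against 21.5% and 21.2% of all tested genes. The calprotectin gene S100a8, a large part of the sum, was at 14461 and 18163 CPM in control and 22838 and 19477 CPM with EGCG. S100a9, a larger part, was at 22455 and 28293 CPM in control and 31668 and 27007 CPM with EGCG, which overlapped. Ltf was lower in both EGCG libraries, at 3875 and 3841 CPM in control and 3716 and 3626 CPM with EGCG. The part of these cells in the values of Slco2a1, Ptgs1 and Alox15 was not tested.

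**Figure D5:**
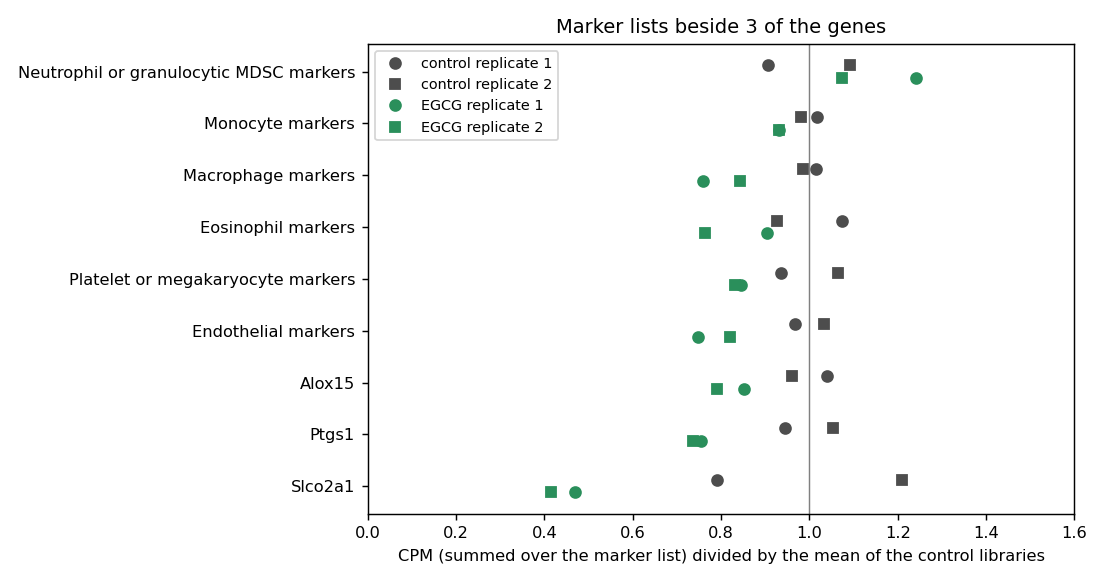
CPM in each library divided by the mean of the control libraries, for the summed markers of 6 cell types and for Alox15, Ptgs1 and Slco2a1 (control in grey, EGCG in green, circles for replicate 1 and squares for replicate 2). The EGCG libraries lie below the control libraries for the monocyte, macrophage, eosinophil, platelet and endothelial sums and for the 3 genes, and overlap them for the neutrophil sum.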

How the data were processed

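RNA was sequenced from spleen-sorted MDSCs, with 2 control and 2 EGCG libraries grouped by their titles. The authors aligned reads with STAR 2.6.0c to GRCm38 and counted them per gene with featureCounts 1.6.2 on Ensembl release 91 without strand, and deposited raw whole-number counts. All 4 count columns were used, with 0 columns of other samples and 0 rows without a gene name. Genes were filtered with filterByExpr (minimum count of 10), scaled by TMM and compared with edgeR 4.0.16 (R 4.3.3, quasi-likelihood test in its legacy form, no block). The standard error is the absolute log2 fold change divided by the square root of F. For Slco2a1, whose value chose the set, it is a description and is not read as a test. Lengths and positions came from GENCODE M21, which held 53360 of the 53465 identifiers, and promoters from RefSeq. Where a symbol had several rows (Itgam, Dpep2), the row with most counts was used. The test was tested on simulated data. Alternatives covered scaling, filter, robust and newer fits, DESeq2 1.42.0, the replicate number as a block, length, and each library left out. The genes and lists were chosen with earlier results of these data known. Named were the 10 genes and, in each wider list, genes past the threshold or otherwise the 2 with the smallest p and the 2 with the highest level. Pla2g4a, Ptger4, Ptgds, Ltb4r2, Cysltr1, Cysltr2, Mgst1, Mgst2, Ptges2, Alox12e and Ggt5 were also named, after their values were seen. With 2 against 2 libraries an exact permutation test cannot go below 0.333. Antisense overlaps make counts uncertain, since strand was not used.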

Additional observations from a re-analysis of the deposited data

How the results depend on the processing

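The sign of the fitted log2 fold change of 8 of the 10 genes was the same in the main analysis and in all alternatives run. The exceptions, Hpgd and Ltc4s, had few counts. Slco2a1, whose value chose the set, is among the 8. For it and for Ptgs1, Ptges, Alox15, Alox5 and Alox5ap the groups did not overlap in CPM. Leaving out a library could hardly turn the sign of such genes. In TPM, which was not among these fits, the means of the abundant genes Alox5 and Lta4h also went the other way. With a library left out, the log2 fold change of Hpgd ran from -0.12 (without control replicate 1) to 1.98 (without control replicate 2), and that of Ltc4s from -0.43 (without EGCG replicate 1) to 0.17 (without EGCG replicate 2), with 0.12 without control replicate 1. Hpgd was not tested under a filter of at least 1 CPM in 2 libraries. Over all tested genes, the main 20 lower and 2 higher calls became 135 and 16 with library size only, 49 and 14 with robust estimation, 50 and 14 with DESeq2, and 0 and 0 with no filter on low counts (which tests more genes). Scaling by upper quartiles gave 9 lower calls, and correcting for length gave 5, and higher calls were 6 with the newer form of the test and 1 with the filter of at least 1 CPM. With a library left out, lower calls ran from 72 to 235 and higher calls from 5 to 119, in fits that take the lone library of an arm to vary like the other group. Of the 9 genes other than Slco2a1, the count of lower calls was 1 (Ptgs1) with library size only, robust estimation and DESeq2, and 0 to 1 with a library left out. In the wider pathway it was 1 (Abcc1) with library size only, robust estimation and DESeq2, and 0 to 2 with a library left out. The cause of these changes was not tested. The replicate numbers are shared by the groups but pair nothing that the labels state (correlation of deviations of 0.0336 over 14682 genes). With the replicate block there were 24 lower and 6 higher calls, with 0 of the 9 genes other than Slco2a1 and 0 of the wider lists among them.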
